A study of Mus musculus with 29 samples.

Results

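The clustered protocadherins are cell-surface adhesion proteins of the cadherin superfamily, encoded by 3 gene clusters that lie next to each other on mouse chromosome 18. They were taken here as every protein-coding gene whose symbol in GENCODE M21 begins with Pcdha, Pcdhb or Pcdhg. The rule found 57 genes among the 48709 gene identifiers of the count tables, namely 14 of the alpha cluster, 22 of the beta cluster and 21 of the gamma cluster. No measured value was used to choose them. The RNA was measured by sequencing of polyadenylated RNA in 29 libraries from 3 experiments on miR-99b-5p, a microRNA that the study inhibited with a locked nucleic acid oligonucleotide (anti-miR-99b) and compared with a negative control oligonucleotide (sc-control). In the prefrontal cortex (PFC) experiment, male C57BL/6J mice 3 months of age received either oligonucleotide in lipid nanoparticles into the PFC, and the tissue was collected 5 days later (n = 3 anti-miR-99b and n = 3 sc-control, 1 library per mouse). Primary microglia came from CD1 pups of postnatal day 1 and were exposed to anti-miR-99b or sc-control for 2 days (n = 4 each). In the co-culture experiment, microglia treated in this way were placed on untreated CD1 cortical neurons of embryonic day 17.5 that had been 10 to 12 days in vitro, and RNA of the whole culture was taken after 48 hours (n = 7 with anti-miR-99b microglia and n = 8 with sc-control microglia). The microRNA itself, too short for these libraries, was not analysed here, so the labels could not be checked against their target.

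In the alpha and gamma clusters, each gene begins with a large variable exon of its own that is spliced to a set of constant exons shared by the whole cluster, whereas the beta genes are single exons. Neurons are known to switch on a small and partly random combination of the variable promoters, a choice in which CTCF, cohesin and DNA methylation take part, and the resulting proteins bind only like combinations on other cells, which lets the branches of a neuron tell self from non-self. The last genes of the alpha and gamma clusters, called C-type, are known to be used by most neurons of a region and not at random. Pcdhac2 is known for the spacing of serotonergic axons, Pcdhgc3 for dendrite branching, Pcdhgc4 for the survival of neurons and Pcdhgc5 as a late postnatal isoform that binds GABA receptors.

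The sequence at the base of the treatment is that of mature miR-99b-5p, printed 5′ to 3′ with its seed (bases 2 to 8) in capitals, from RefSeq (GRCm38.p6, plus strand, chr17:17830194-17830215).
miR-99b-5p: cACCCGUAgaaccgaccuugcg
The seed ACCCGUA pairs with TACGGGT in an RNA written as DNA. That string occurred anywhere in the annotated transcripts of 812 of 21695 protein-coding genes (3.74%) and of 1 of the 57 clustered protocadherins, Pcdhgb4. A match of letters is a description and no binding site.

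The shared exons decide what a count per gene can mean. All 57 genes lie on the plus strand of chromosome 18 in GRCm38, the alpha cluster at 36930184 to 37187661, the beta cluster at 37264938 to 37524479 and the gamma cluster at 37661793 to 37841873. The alpha genes share 3 exon blocks with 2860 bases in all and the gamma genes 3 blocks with 2116 bases, while the beta genes share none. A read on such a block belongs to every gene of its cluster. If such reads were left out, which the sources used here do not state, the counts describe the variable exons. They are levels of RNA and do not measure the choice of promoter itself. The countable length of a gene is used here for the exon bases that belong to no other gene on either strand. This length was 0 for Pcdhga10, whose variable exon is covered by the opposite-strand model Gm26672, and 404 bases for Pcdha4. Pcdhga10 was listed at 0 in all 29 libraries, and Pcdha4 had at most 9 counts in any library. The identifier ENSMUSG00000102206, named Pcdha11, had at most 4 counts. A different identifier, ENSMUSG00000007440, also carries the symbol Pcdha11 in GENCODE M21, although RefSeq names the gene at that start Pcdha10, and it is called Pcdha11 (ENSMUSG00000007440) below. Reads of 50 bases cannot always separate paralogs. The share of 50-base windows of the countable length that also occurred in another gene's transcripts was 0% for the 5 C-type genes, at most 9.52% for the beta genes, 10.2% to 25.5% for the other alpha genes tested and up to 16.8% (Pcdhgb1) for the gamma genes. Values of the alpha genes of the variable type, Pcdhgb1, Pcdhgb2 and Pcdhgb6 are uncertain to that extent.

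The libraries held 21324156 to 37901110 counts, of which 11714 to 16896 fell on the clustered protocadherins in a PFC library, 18971 to 31135 in a co-culture library and 1922 to 3438 in a microglial library. All levels are given as CPM, counts relative to the library size scaled by edgeR's TMM factors over the 29 libraries together, and levels of different genes are compared only per kilobase of countable length. Markers of cell types matched the labels. The summed level of 10 neuron markers (Rbfox3, Snap25, Gad1 and others) had a median of 9730 CPM in the sc-control PFC, 8240 CPM in the co-culture and 162 CPM in the microglia, and that of 10 microglial markers 476, 116 and 12800 CPM. The neuron sums hide opposite changes. By the thresholds given below, 3 of the 10 were higher and 4 lower in the co-culture than in the PFC (14.7% and 20.4% of all genes). Snap25 measured 2800 to 3330 CPM in the sc-control PFC and 488 to 514 CPM in the sc-control co-culture. For Stmn2 the ranges were 406 to 438 and 1870 to 1940 CPM. Other cells differed as well. Under sc-control, 4 markers of immature neurons summed to 62.1 CPM in the PFC and 1550 CPM in the co-culture, 7 oligodendrocyte markers to 6030 and 70.4 CPM, and 8 astrocyte markers to 4390 and 2560 CPM. Between the PFC and the cultures, strain, age and culture differ together with the cells and cannot be told apart from them. Between the microglia and the co-culture, the age of the source animals and the form of culture do so. The labels name lanes but no sequencing run, so a difference of run between experiments cannot be told apart either. In RNA of mixed cells a smaller number of cells of one type cannot be told apart from less RNA per cell.

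The clustered protocadherins as a whole were most abundant in the co-culture, and the clusters were not used in the same proportion in the 3 experiments. Under sc-control the alpha genes summed to 164 ± 2.72 CPM in the co-culture (SD, n = 8), 63.6 ± 6.34 CPM in the PFC (SD, n = 3) and 6.64 ± 0.664 CPM in the microglia (SD, n = 4). The beta genes summed to 279 ± 7.65, 119 ± 5.66 and 31.6 ± 2.45 CPM in the same order, and the gamma genes to 351 ± 6.26, 272 ± 24.4 and 68.4 ± 4.75 CPM. No library of an experiment overlapped with those of another in any of these sums. The step from PFC to co-culture was 2.59-fold for alpha, 2.34-fold for beta and 1.29-fold for gamma as a ratio of geometric means. From the co-culture to the microglia the sums were 24.8-fold lower for alpha, 8.84-fold lower for beta and 5.14-fold lower for gamma. These are descriptions without a test.

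**Figure D1:**
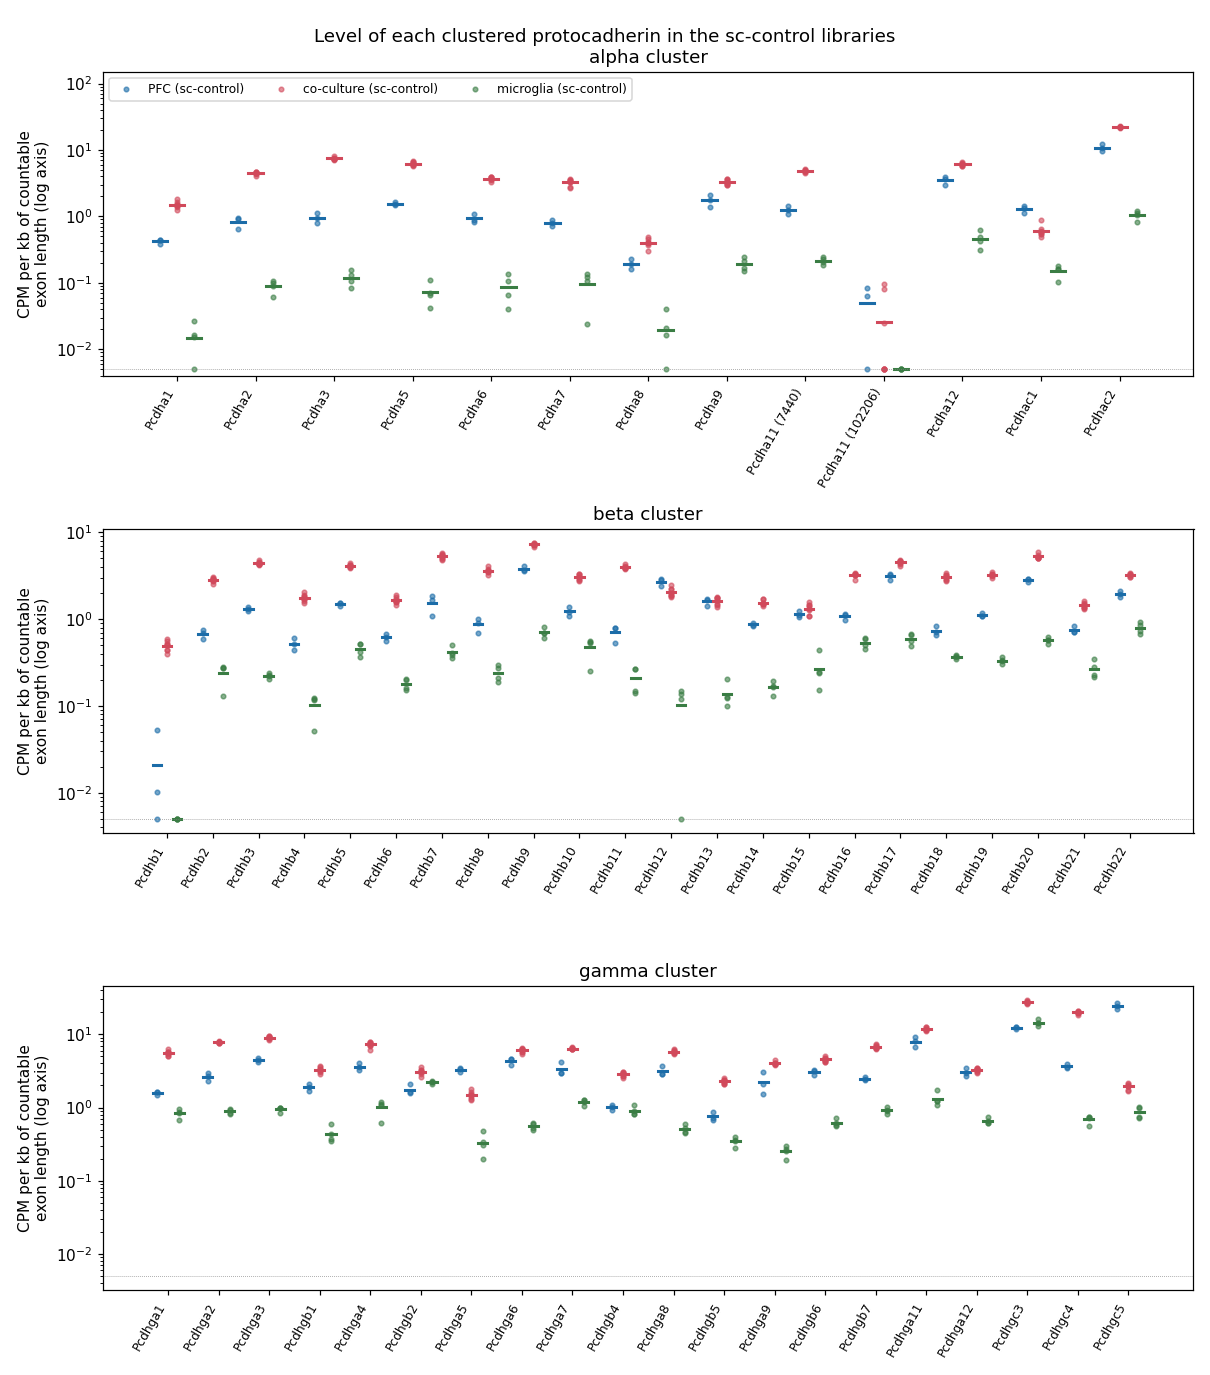
Level of each clustered protocadherin with at least 1000 bases of countable length, in CPM per kilobase on a log axis, in the sc-control libraries of the PFC (blue), the co-culture (red) and the microglia (green), with genes in chromosomal order from left to right. Each point is a library, bars are means, and values of 0 are drawn on the dotted line. Pcdhgc5 stands highest in the PFC (24.7 CPM per kb) and near the lower end of its cluster in the co-culture (1.94 CPM per kb), and in the microglia Pcdhgc3 (14.4 CPM per kb) stands far above all others.

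Per kilobase, a C-type gene led the alpha and the gamma cluster in every experiment. Pcdhac2 was the highest alpha gene, with 10.8 ± 1.29 CPM per kb in the PFC, 22.2 ± 0.326 in the co-culture and 1.05 ± 0.163 in the microglia. In the gamma cluster the leader changed. It was Pcdhgc5 in the PFC (24.7 ± 2.38 CPM per kb, before Pcdhgc3 with 12.3), Pcdhgc3 in the co-culture (27.6 ± 1.04, before Pcdhgc4 with 19.9) and Pcdhgc3 in the microglia (14.4 ± 1.22, before Pcdhgb2 with 2.2). With the whole exon length, or with the length free of genes on the same strand alone, Pcdhgc4 and not Pcdhgc3 led in the co-culture, and the other leaders were the same. Among the beta genes the levels were flatter, and the highest were Pcdhb9 in the PFC (3.76 ± 0.258 CPM per kb) and in the co-culture (7.24 ± 0.282), and Pcdhb22 in the microglia (0.798 ± 0.122). The lowest genes above 0 were Pcdha11 (ENSMUSG00000102206) in the alpha cluster of the PFC (0.0492 CPM per kb) and of the co-culture (0.0254), and Pcdha1 in that of the microglia (0.0146). In the beta cluster the lowest was Pcdhb1 in the PFC (0.0209) and the co-culture (0.493) and Pcdhb12 in the microglia (0.102). In the gamma cluster it was Pcdhgb5 in the PFC (0.766), Pcdhga5 in the co-culture (1.49) and Pcdhga9 in the microglia (0.255). Neighbouring ranks within a cluster often differed by less than the spread between libraries, as for Pcdhga6 (4.36 ± 0.434 CPM per kb) and Pcdhga3 (4.49 ± 0.307) in the PFC.

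How evenly a cluster was used can be given as an effective number of genes, the exponential of the Shannon entropy of the shares of its counts, which equals the number of genes when all take the same share. For the gamma cluster it was 10.2 ± 0.203 in the PFC and 15.5 ± 0.172 in the co-culture, and the libraries did not overlap. Pcdhgc5 alone took 41.8 ± 0.746% of the gamma counts in the sc-control PFC, where Pcdhgc3 took 8.3% and Pcdhgc4 4.71%. In the co-culture Pcdhgc4 took 19.7 ± 0.743% and Pcdhgc3 14.3 ± 0.387%. In the microglia, with an effective number of 11.0, Pcdhgc3 took 38.4 ± 1.81%. The alpha cluster had effective numbers of 5.98 ± 0.281 in the PFC and 7.23 ± 0.0966 in the co-culture, with 51.3% and 41% of its counts on Pcdhac2. The beta cluster was the most even, at 17.6 ± 0.273 in the PFC, 18.7 ± 0.0954 in the co-culture and 16.5 ± 0.498 in the microglia. These shares are of counts and so depend on the countable lengths. Per length the share of Pcdhgc5 in the PFC was 27% in place of 41.8%.

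The 5 C-type genes did not move together between the PFC and the co-culture, and 2 of them changed in opposite directions by a large factor. Pcdhgc5 measured 113, 125 and 103 CPM in the 3 sc-control mice, and 7.72 to 9.82 CPM, with a median of 9.05, in the 8 sc-control co-cultures. The lowest PFC library thus stood far above the highest co-culture. Its log2 fold change (log2FC) was -3.71 ± 0.06 (SE; edgeR quasi-likelihood test, adjusted p = 1.63e-22), with a 95% interval from -3.82 to -3.59. Pcdhgc4 showed the reverse, with 12.0, 13.8 and 12.6 CPM in the PFC and 64.6 to 71.9 CPM, median 69.5, in the co-culture. Its log2FC was 2.40 ± 0.05 (edgeR adjusted p = 3.03e-20).

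The other C-type genes changed less. Pcdhac2 measured 32.1, 36.8 and 29 CPM in the PFC and 65.6 to 68.6 CPM, median 67.4, in the co-culture. Pcdhgc3 measured 23.2, 21.6 and 22.6 CPM in the PFC and 47.9 to 53.8 CPM, median 50.2, in the co-culture. Both were higher in every co-culture, with a log2FC of 1.01 ± 0.05 for Pcdhac2 and of 1.12 ± 0.04 for Pcdhgc3 (edgeR adjusted p = 4.91e-14 and 1.17e-15), so that Pcdhac2 lay just past the threshold of 1. Pcdhac1, the remaining C-type gene, was low in both, with 3.48, 3.70 and 2.86 CPM in the PFC and 1.25 to 2.30 CPM, median 1.5, in the co-culture. It was lower in the co-culture, with a log2FC of -1.13 ± 0.14 (edgeR adjusted p = 1.91e-07).

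**Figure D2:**
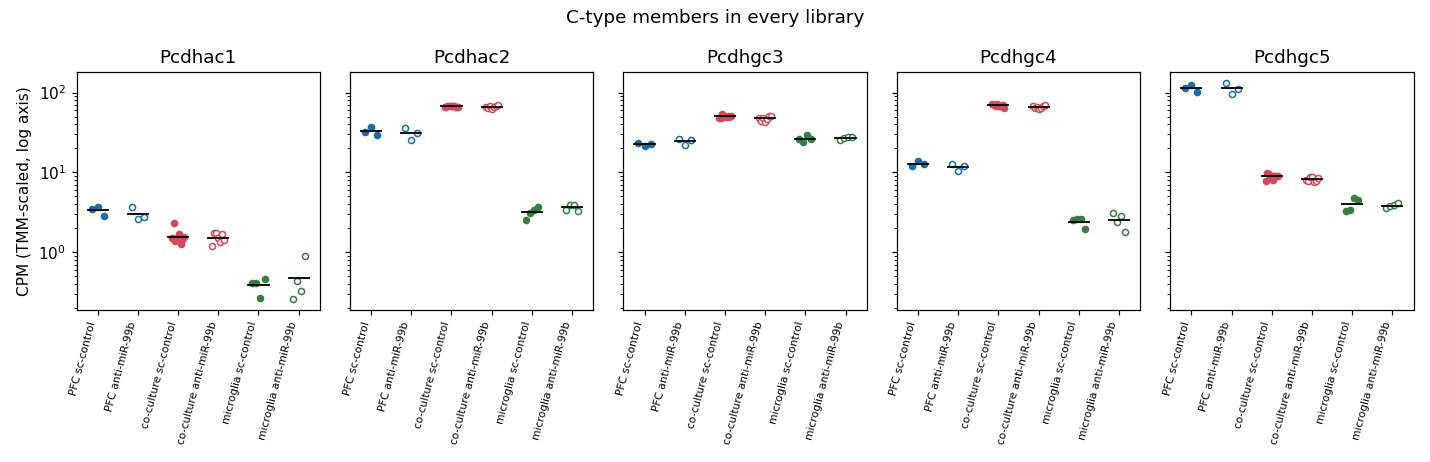
CPM of the 5 C-type genes on a log axis in all 29 libraries, with sc-control as filled points, anti-miR-99b as open points and bars for means. The sc-control mean of Pcdhgc5 is 114 CPM in the PFC and 8.93 CPM in the co-culture, that of Pcdhgc4 12.8 and 69.1 CPM, and within each experiment the treatments overlap.

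Over all members, the comparison of the sc-control co-culture with the sc-control PFC called a gene at an adjusted p under 0.05 and a log2FC beyond 1. Of 54 genes tested, 29 were higher in the co-culture, 3 were lower and 22 were not called. Of all 17678 genes tested, 14.7% were called higher and 20.4% lower. The median log2FC was 1.07 for the 54 genes and -0.01 for all genes. In 47 of the 54 every co-culture library lay above every PFC library, against 39.5% of all genes, and in 3 every co-culture library lay below, against 37.1%. Without the fold threshold 47 were higher and 4 lower, where 7464 of all 17678 genes were higher and 7623 lower. The other 3 genes, Pcdha4, Pcdha11 (ENSMUSG00000102206) and Pcdhga10, had too few counts to be tested.

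By cluster, 9 of 12 alpha genes tested were higher and 1, Pcdhac1, was lower, with a median log2FC of 1.84. Pcdha3 measured 2.00, 2.37 and 2.75 CPM in the PFC and 17.3 to 19.9 CPM, median 18.4, in the co-culture, a log2FC of 2.92 ± 0.08 (edgeR adjusted p = 4.07e-18). Pcdha2 measured 1.61, 2.37 and 2.26 CPM in the PFC and 10.0 to 11.5 CPM, median 11.3, in the co-culture, a log2FC of 2.40 ± 0.10 (edgeR adjusted p = 2.24e-15). Pcdha3 and Pcdha2 code for variable-type adhesion receptors near the 5′ end of the cluster. The 2 alpha genes not called, Pcdha9 and Pcdha12, had a log2FC of 0.87 and 0.78. Pcdha11 (ENSMUSG00000007440), which lies between them, was called higher with a log2FC of 1.91. Pcdha8 on the 5′ side of Pcdha9 and Pcdhac2 at the 3′ end both had 1.01.

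Of 22 beta genes tested, 13 were higher and none was lower (0), with a median log2FC of 1.40. Pcdhb1 had 1, 0 and 5 counts in the PFC and 28 to 49 counts in the co-culture. Its fold therefore rests on few counts in the PFC, and the log2FC of 4.35 ± 0.37 (edgeR adjusted p = 6.31e-10) became 6.05 without sc-control mouse 4. Pcdhb11 measured 2.37, 3.47 and 3.46 CPM in the PFC and 16.8 to 18.8 CPM, median 17.4, in the co-culture, a log2FC of 2.47 ± 0.09 (edgeR adjusted p = 1.79e-16). Genes of the same stretch differed from these. Pcdhb12, Pcdhb13 and Pcdhb15 had a log2FC of -0.44, -0.02 and 0.19, and Pcdhb13 measured 5.29, 6.37 and 6.18 CPM in the PFC and 5.06 to 6.58 CPM, median 6.22, in the co-culture, where the groups overlapped.

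Of 20 gamma genes tested, 7 were higher, 2 were lower and 11 were not called, with a median log2FC of 0.88. Besides Pcdhgc4, the largest increase was that of Pcdhga1, from 4.21, 4.57 and 4.58 CPM in the PFC to 14.3 to 17.8 CPM, median 15.9, in the co-culture (log2FC 1.79 ± 0.08, edgeR adjusted p = 6.53e-15). Besides Pcdhgc5, Pcdhga5 was lower, from 7.72, 8.78 and 8.61 CPM to 3.23 to 4.60 CPM, median 3.81 (log2FC -1.17 ± 0.09, edgeR adjusted p = 7.93e-11). Pcdhga5 was thus the only variable-type gene of the 3 clusters called lower in the co-culture. Its neighbours Pcdhgb2 and Pcdhga6 had a log2FC of 0.79 and 0.44.

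The difference between co-culture and PFC was graded along 2 of the clusters. Across the alpha genes tested, Spearman's rho between the position in the cluster, counted from the 5′ end, and the log2FC was -0.73 (12 genes), and -0.64 without the C-type genes (10 genes). Across the 22 beta genes it was -0.53. Across the 20 gamma genes it was -0.20, and -0.37 without the C-type genes (17 genes). The share of 50-base windows found in other genes had a rho with the log2FC of 0.49 in the alpha cluster (0.22 without the C-type genes), 0.23 in the beta cluster and -0.07 in the gamma cluster. The points of a cluster come from the same libraries and lie in 1 locus, so these values are descriptions.

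**Figure D3:**
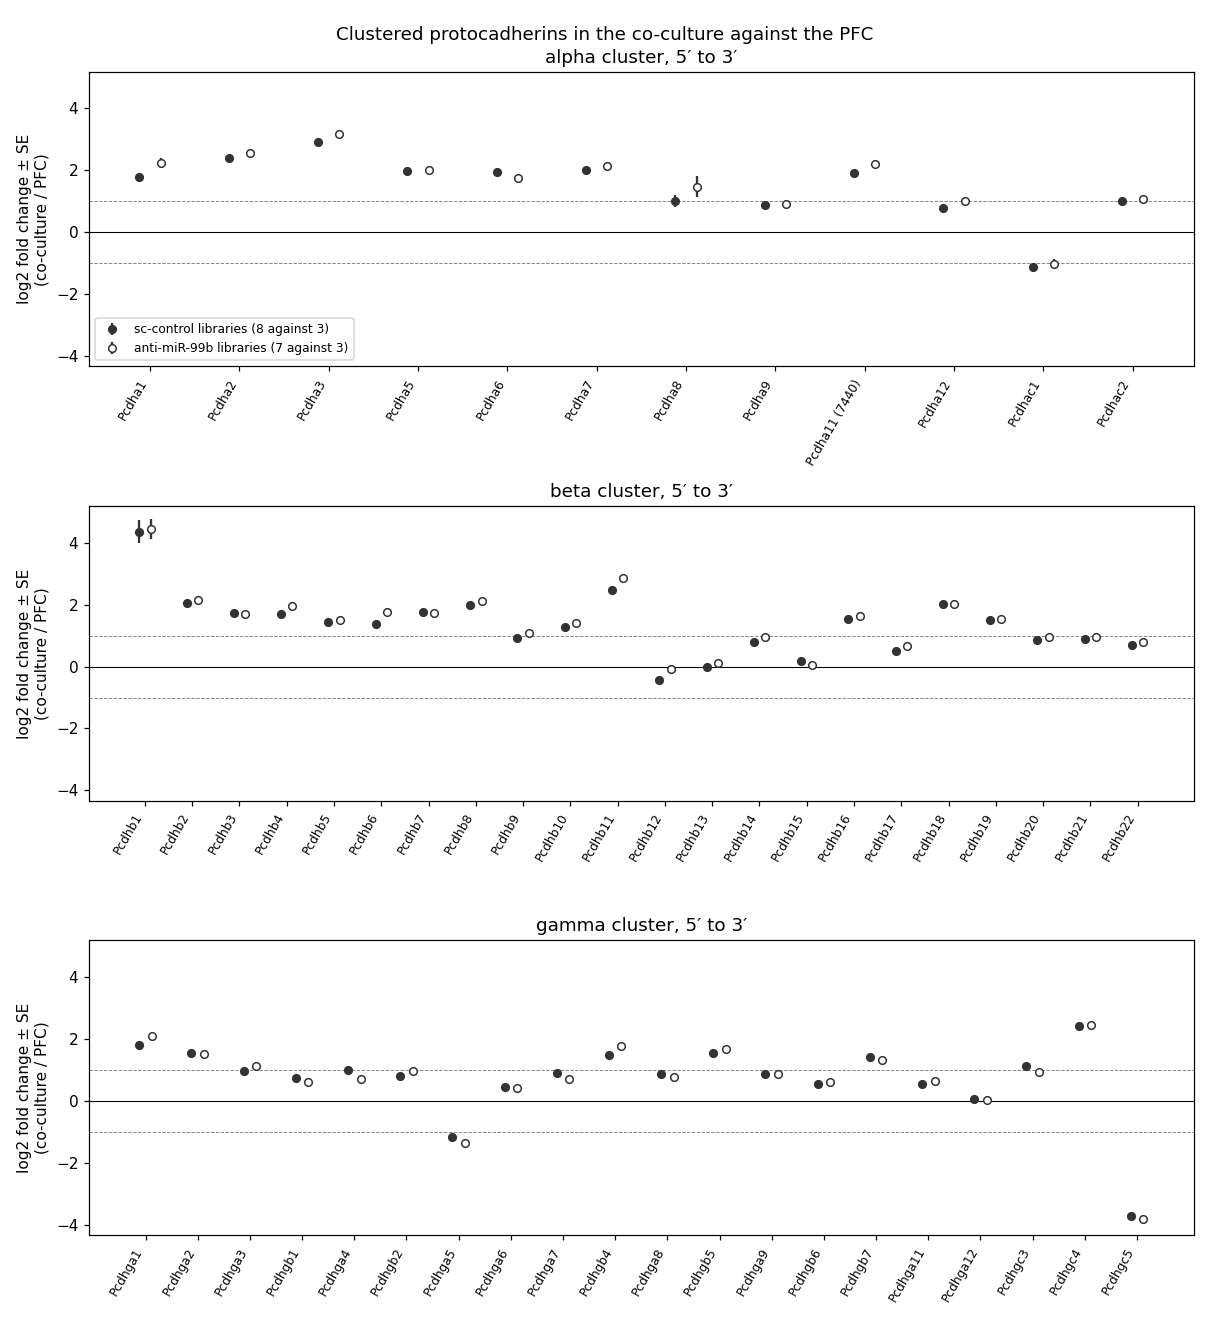
Log2 fold change of each tested clustered protocadherin between co-culture and PFC, with its standard error, in chromosomal order, from the sc-control libraries (filled) and the anti-miR-99b libraries (open). Dashed lines mark the threshold of 1 in either direction. Most genes lie above 0, Pcdhgc5 lies at -3.71 and Pcdhgc4 at 2.40, and the anti-miR-99b libraries give a similar picture.

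The anti-miR-99b libraries of the same experiments, which share none of these samples, gave 31 genes higher and 3 lower. Of all 17773 genes tested in these libraries, 2719 were called higher and 3864 lower. The share of calls that repeated was computed for the members alone and not for all genes. Of the 29 genes higher under sc-control, 28 were called again (96.6% of the sc-control calls and 90.3% of the anti-miR-99b calls), and the 3 lower genes were called in both. The log2FC of a gene differed between the 2 sets by at most 0.47, with a median of 0.12. In these sets the neuron, immature neuron, oligodendrocyte and astrocyte markers differed between the experiments as under sc-control, and their part in the result was not tested.

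In the microglia, most clustered protocadherins were at a low level, but the gamma cluster did not fall as far as the alpha cluster. Pcdhgc3 was the highest of the 57 genes, with 26.2, 23.8, 29.2 and 25.9 CPM in the 4 sc-control cultures. Every one of these lay above the 3 sc-control PFC libraries and below the 8 co-cultures on the TMM scale. The order against the PFC depends on that scale. By library size alone, microglial replicate 3 (578 of 26677250 counts) lay below the lowest PFC library (647 of 28450652 counts). Against the PFC its log2FC was 0.19 ± 0.07 and it was not called (edgeR adjusted p = 0.0188, threshold 1), and against the co-culture it was -0.88 ± 0.04, also not called (adjusted p = 7.6e-18). Pcdhgb2 followed with 6.10, 5.76, 6.35 and 6.11 CPM, above the 4.35, 5.71 and 4.52 CPM of the PFC on the same scale. By library size alone the groups overlapped for this gene too. Its log2FC was 0.30 against the PFC and -0.43 against the co-culture, and it was called in neither. Pcdhb22, the highest beta gene of the microglia, measured 4.46, 4.11, 5.32 and 5.74 CPM, with a log2FC of -1.94 against the co-culture.

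Nearly all other genes tested were lower in the microglia than in the neuronal samples, with the exception of Pcdhgb4, which measured 2.96 to 3.88 CPM in the microglia and 3.32 to 3.90 CPM in the PFC, where the groups overlapped. Of the 54 genes tested against the co-culture, 52 were called lower and 0 higher, where 33.9% of all 16926 genes were lower and 25.6% higher. Of 53 tested against the PFC, 49 were lower and 0 higher, where 36.6% of all 17586 genes were lower and 26.7% higher. Within the microglial libraries alone, 5 alpha, 20 beta and 20 gamma genes passed the filter on low counts. The others, mostly alpha genes, passed it through the neuronal samples alone, so their calls are no support. The levels are given instead. By the fitted log2FC, the largest drops against the co-culture were those of Pcdha5 (0.168 ± 0.0651 against 14.7 ± 0.883 CPM) and Pcdha1 (0.0364 ± 0.0274 against 3.74 ± 0.422 CPM) in the alpha cluster and of Pcdhb3 (0.846 against 16.7 CPM) in the beta cluster, besides Pcdhb1. By the ratio of means Pcdhb12 (0.112 against 2.26 CPM) stood as low as Pcdhb3, at 4.98% and 5.08% of the co-culture. In the gamma cluster they were those of Pcdhgc4 (2.41 ± 0.304 against 69.1 ± 2.44 CPM) and Pcdhga9 (0.884 ± 0.155 against 14.0 ± 0.643 CPM). Pcdhb1 had 0 counts in all 8 microglial libraries, which allows up to 0.0299 CPM over the 4 sc-control libraries together (3 counts, counting error only). Against the PFC the largest drops by the fitted log2FC were those of Pcdha1 and Pcdha5 (log2FC -4.62 and -4.50), Pcdhb12 and Pcdhb13 (-4.63 and -3.54), and Pcdhgc5 and Pcdhga5 (-4.85 and -3.29). Among the C-type genes, Pcdhac1 fell by 1.93 and Pcdhac2 by 4.32 on the log2 scale against the co-culture.

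Neuron markers were present in the microglial cultures at 0.388% to 2.96% of their mean level in the co-culture (10 markers, median 1.30%). The 12 alpha genes tested stood at 0.972% to 24.7% (median 3.71%), the 22 beta genes at 0% to 24.7% (median 10.5%) and the 20 gamma genes at 3.49% to 71.2% (median 13.7%). Above the highest neuron marker (2.96%) stood 6 of the 12 alpha, 21 of the 22 beta and all 20 gamma genes. Above 10% stood 1 alpha gene (Pcdhac1, 24.7%), 12 beta and 16 gamma genes. The shares of all genes above these cuts were not computed, so these counts do not set the members apart from other genes. The 4 immature neuron markers summed to 99.8 to 118 CPM here and 1500 to 1640 CPM in the co-culture. By the fitted log2FC against the co-culture the median was -6.19 for the neuron and -2.76 for the immature neuron markers. It was -4.07 for the 11 non-clustered protocadherins tested, -3.17 for the 54 members and -0.07 for all genes. The highest of the 10 neuron markers is thus no upper limit for neuronal RNA, and not only members stood above it. Markers of other cells were also present under sc-control. The 8 astrocyte markers summed to 321 to 375 CPM, the 3 oligodendrocyte precursor markers to 97.2 to 117 CPM, the 4 fibroblast markers to 34.6 to 60.8 CPM, against 2450 to 2640, 196 to 223 and 13.5 to 18.3 CPM in the co-culture. The 7 oligodendrocyte markers summed to 233 to 264 CPM against 65.1 to 74.7 CPM in the co-culture. For the 4 choroid plexus markers the sums were 1.36 to 2.66 and 11.8 to 31.9 CPM. For the 3 endothelial markers they were 56.8 to 71 and 1.76 to 3.26 CPM, with Flt1 alone at 56.2 to 69.7 CPM in the microglia. The part of these cells in the microglial values was not tested. Scaling by library size alone moved the median log2 ratio of all genes from -0.12 to -0.28 between microglia and co-culture and from -0.08 to -0.27 between microglia and PFC, and the values above are relative to the TMM scale.

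**Figure D4:**
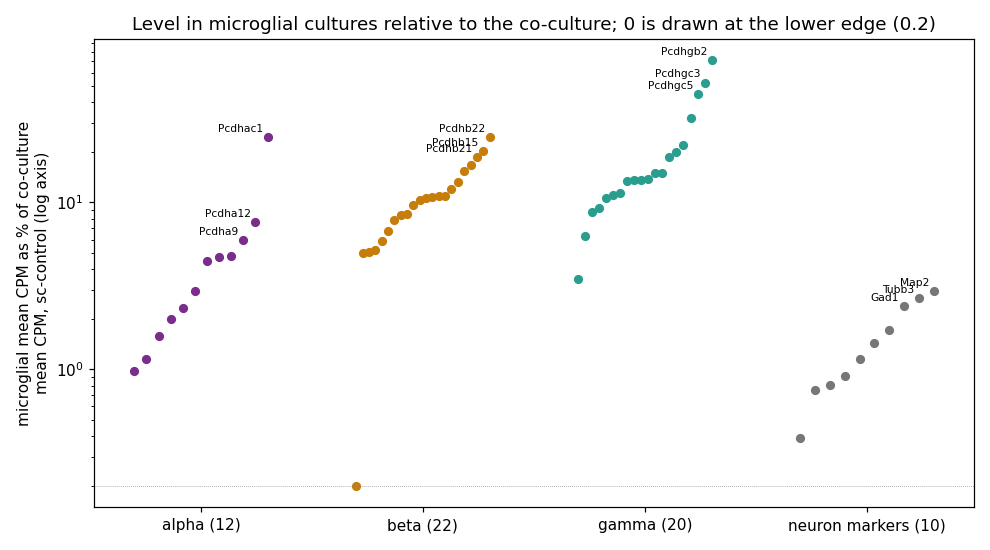
Mean CPM in the sc-control microglia as a percentage of the mean CPM in the sc-control co-culture, on a log axis with 0 drawn at the lower edge, for the 12 alpha, 22 beta and 20 gamma genes tested and for 10 neuron markers, sorted within each set. The neuron markers lie between 0.388% and 2.96%, and the gamma genes lie between 3.49% and 71.2% with Pcdhgb2, Pcdhgc3 and Pcdhgc5 at the top.

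Inhibition of miR-99b-5p did not bring any clustered protocadherin past the thresholds in any of the experiments. In the PFC (adjusted p under 0.1 and log2FC beyond 0.2), 0 of 53 genes tested were called in either direction by edgeR and 0 by DESeq2, where 0.0864% of all 17364 genes were called higher and 0% lower. At an unadjusted p under 0.05, 2 were lower and 0 higher, against 2.47% and 5.17% of all genes. The log2FC of the 53 genes ranged from -0.42 to 0.25 with a median of -0.11, against a median of 0.00 for all genes, and 13 of 53 were positive, against 50.6% of all genes. The median of the members was -0.03 without anti-miR-99b mouse 2 and -0.07 without sc-control mouse 3. It was -0.13 without anti-miR-99b mouse 1 and -0.14 without sc-control mouse 2. At an unadjusted p under 0.05 there was 1 member in place of 2 without anti-miR-99b mouse 1 or 2. There were 3 without anti-miR-99b mouse 3 or sc-control mouse 2. In 6 genes every anti-miR-99b mouse lay below every sc-control mouse (11.3%, against 5.9% of all genes), and in 0 above (against 7.5%). The 6 were Pcdha11 (ENSMUSG00000007440), Pcdhb6, Pcdhb9, Pcdhga1, Pcdhgb2 and Pcdhgb4.

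The lowest p-values of the clusters in the PFC belonged to 3 of these. Pcdha11 (ENSMUSG00000007440) measured 2.38, 2.48 and 2.2 CPM with anti-miR-99b and 3.16, 3.57 and 2.75 CPM with sc-control, a log2FC of -0.42 ± 0.15 (edgeR adjusted p = 0.639). Pcdhb6 measured 1.88, 1.87 and 1.61 CPM with anti-miR-99b and 2.34, 2.10 and 2.56 CPM with sc-control (log2FC -0.39 ± 0.16, adjusted p = 0.649). Pcdhgb4, the gene that holds the seed match, measured 2.81, 3.18 and 2.83 CPM with anti-miR-99b and 3.32, 3.90 and 3.62 CPM with sc-control (log2FC -0.29 ± 0.14, adjusted p = 0.66, 95% interval -0.60 to 0.02). In the microglia and the co-culture the log2FC of Pcdhgb4 was 0.02 (95% interval -0.23 to 0.27) and 0.00 (-0.09 to 0.10). The microglial markers summed to 604 to 650 CPM with anti-miR-99b and 465 to 609 CPM with sc-control, and the neuron markers to 9240 to 9580 CPM with anti-miR-99b and 9540 to 10000 CPM with sc-control. Their part in the direction of the protocadherins was not tested.

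In the co-culture, where more libraries were available, the treatment differences were small. By edgeR 0 of 54 genes were called (adjusted p under 0.05 and log2FC beyond 0.1), and 0 by DESeq2, where 0.846% of all 16193 genes were called higher and 0.556% lower. At an unadjusted p under 0.05, 9 were lower and 0 higher, against 6.81% and 6.4% of all genes. The number at that p, in either direction, was 3 without anti-miR-99b replicate 10, 4 without anti-miR-99b replicate 2 or sc-control replicate 5 or 8, and 5 without anti-miR-99b replicate 3 or sc-control replicate 4. It was also 5 with upper-quartile factors and with the lane as a block. In none (0) did the groups fail to overlap, against 0.309% of all genes higher and 0.346% lower. The log2FC ranged from -0.18 to 0.14 with a median of -0.02, and of -0.02 to -0.01 with each library left out. For the 47 genes with a mean of at least 5 CPM in both groups the 95% intervals together spanned -0.25 to 0.22. Of the 9 genes, 6 were gamma genes, among them Pcdhgc3, Pcdhgc4 and Pcdhgc5. Pcdhgc4 measured 62.6 to 69.9 CPM, median 66.1, with anti-miR-99b microglia and 64.6 to 71.9 CPM, median 69.5, with sc-control microglia (log2FC -0.07 ± 0.03, edgeR adjusted p = 0.284). Pcdhb16 had the lowest p of all members. It measured 14.3 to 17.9 CPM, median 15.1, with anti-miR-99b and 14.8 to 17.8 CPM, median 17.1, with sc-control, a log2FC of -0.13 ± 0.05 (edgeR adjusted p = 0.205). Without anti-miR-99b replicate 7 it was called, with a log2FC of -0.17 (adjusted p = 0.0362). Pcdha11 (ENSMUSG00000007440) had the lowest p of the alpha genes (log2FC -0.11 ± 0.05, edgeR adjusted p = 0.348). Microglial markers were higher in the anti-miR-99b co-cultures, with a sum of 129 to 147 CPM against 105 to 133 CPM, and 5 of the 10 (Csf1r, Cx3cr1, C1qa, C1qb and Trem2) were called higher. The part of the microglial content in the values was not tested.

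In the microglia 0 of 45 genes tested were called by edgeR (adjusted p under 0.1 and log2FC beyond 0.1) and 0 by DESeq2, where 0.435% of all 14953 genes were called higher and 0.0535% lower. At an unadjusted p under 0.05, 2 were higher and 0 lower, against 3.4% and 3.04% of all genes. In these 2 genes every anti-miR-99b culture lay above every sc-control culture (4.44%, against 3.3% of all genes), and in 0 below (against 0.936%). Pcdhga9 measured 1.37, 1.70, 1.08 and 1.37 CPM with anti-miR-99b and 0.666, 0.946, 1.03 and 0.896 CPM with sc-control (log2FC 0.60 ± 0.20, edgeR adjusted p = 0.467). Pcdhb3 measured 1.33, 0.904, 1.27 and 1.33 CPM with anti-miR-99b and 0.871, 0.782, 0.837 and 0.896 CPM with sc-control (log2FC 0.50 ± 0.19, edgeR adjusted p = 0.654). Among the alpha genes Pcdha12 came first (log2FC 0.29 ± 0.21, adjusted p = 0.891). Pcdhgc3, the leading gene of these cells, measured 25.7 to 27.7 CPM with anti-miR-99b and 23.8 to 29.2 CPM with sc-control, a log2FC of 0.02 with a 95% interval from -0.09 to 0.13. For most other members the microglial counts were few, and the 95% intervals of the 45 genes together spanned -1.20 to 1.11.

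A test of whether the treatment difference itself differed between PFC and co-culture (interaction term, edgeR, 21 libraries) called 0 of 54 members, where 0.448% of all 18321 genes were called at an adjusted p under 0.05. At an unadjusted p under 0.05 the members numbered 9 (16.7%, against 15.4% of all genes), and 7 with RLE factors. The summed levels moved little with the treatment in the PFC and the co-culture. In the PFC the log2 ratio of anti-miR-99b to sc-control was -0.10 for alpha, -0.11 for beta and -0.02 for gamma, where the larger SD of a group was 0.22, 0.09 and 0.20. In the co-culture it was -0.01, -0.02 and -0.06, with SDs of 0.05, 0.04 and 0.04, and in the microglia 0.24, 0.03 and 0.05, with SDs of 0.15, 0.12 and 0.10. The microglial alpha sum, 7.52 to 7.95 CPM with anti-miR-99b and 5.84 to 7.34 CPM with sc-control, did not overlap but rests on 114 to 239 counts per library.

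**Figure D5:**
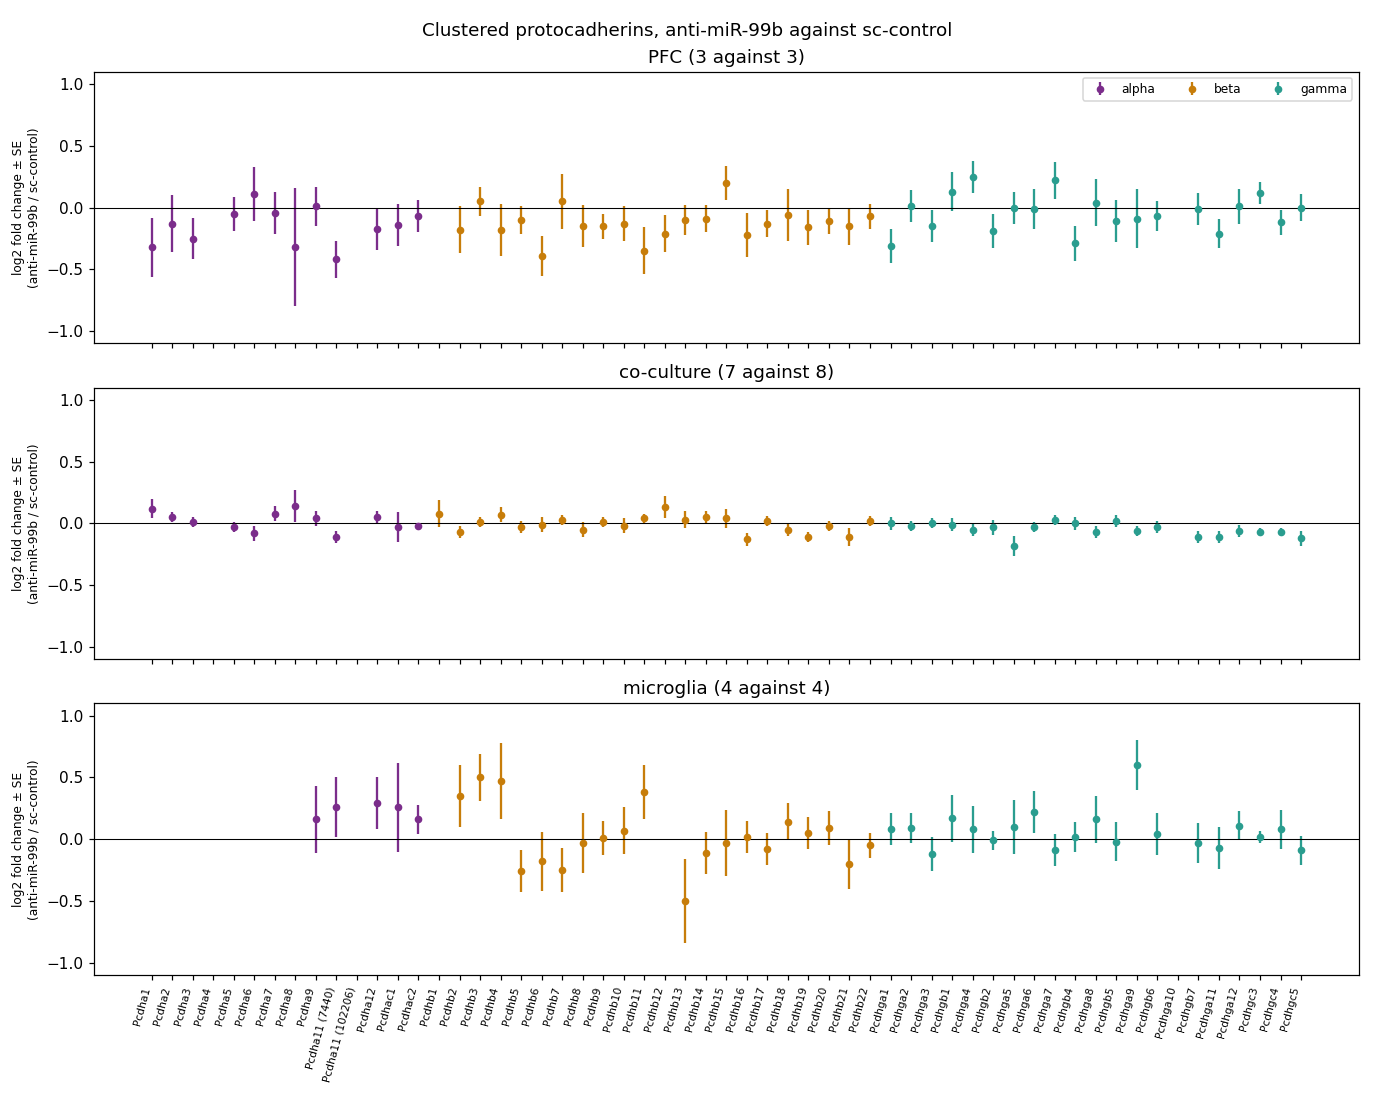
Log2 fold change of each clustered protocadherin between anti-miR-99b and sc-control with its standard error, in the PFC, the co-culture and the microglia, coloured by cluster and in chromosomal order. Genes not tested have no point. The values stay between -0.42 and 0.25 in the PFC, between -0.18 and 0.14 in the co-culture and between -0.50 and 0.60 in the microglia, and none passed the threshold.

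The related genes of 3 lists gave context. Their counts stand beside the shares of all genes tested. Of these, 14.7% were called higher and 20.4% lower in the co-culture than in the PFC. In the microglia 25.6% were higher and 33.9% lower than in the co-culture, and 26.7% and 36.6% than in the PFC. No list was tested as a set. Of the 12 non-clustered protocadherins, adhesion proteins whose genes have promoters and loci of their own, 4 were higher and 1 was lower in the co-culture than in the PFC. Named here and for the lists that follow are the genes with the lowest adjusted p. Pcdh8, an activity-regulated member, measured 167 against 33.9 CPM (log2FC 2.26 ± 0.04, edgeR adjusted p = 3.83e-21), Pcdh19, the gene of an X-linked epilepsy, 126 against 43.4 CPM, and Pcdh11x 69.7 against 13.4 CPM. All 12 were lower in the microglia than in the PFC, with the lowest adjusted p for Pcdh9, Pcdh1 and Pcdh10 at a log2FC of -4.47, -4.55 and -3.50. Of these, Pcdh12 passed the filter through the PFC alone (0.844 to 0.974 CPM against at most 0.0664 CPM, sc-control), so its call is no support. The 11 tested were lower than in the co-culture, with the lowest adjusted p for Pcdh8, Pcdh19 and Pcdh9 at a log2FC of -6.72, -5.39 and -3.95. Under treatment 1 was called, Pcdh15, a component of the tip links of hair cells, which was lower in the anti-miR-99b co-cultures (36 against 39.5 CPM, log2FC -0.13 ± 0.03, edgeR adjusted p = 0.0497), and the groups overlapped.

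The shares of all genes given above apply to the next 2 lists as well. Of 22 regulators of the clusters (CTCF, cohesin, DNA methylation and repressors), 5 were higher in the co-culture than in the PFC and 0 were lower, with a median log2FC of 0.62. Among these were the DNA methyltransferase Dnmt3a (338 against 115 CPM, log2FC 1.52 ± 0.03), Tet1, which oxidises methylcytosine (73.0 against 11.9 CPM, 2.58 ± 0.07), and Tet3 (143 against 66.9 CPM, 1.05 ± 0.06). In the microglia 4 were higher and 2 lower than in the co-culture, among them the repressor Rest (63.8 against 10.7 CPM), the maintenance methyltransferase Dnmt1 (288 against 116 CPM) and Tet1, which was lower (5.88 against 73.0 CPM). Against the PFC, 13 were higher and 1 was lower, and Rest, Dnmt1 and Dnmt3a were among the higher genes. Of 24 cytoplasmic partners and processing enzymes, 1 was higher and 2 were lower in the co-culture than in the PFC. The kinase substrate Marcks was higher (712 against 148 CPM), and the kinase Ptk2b (71.6 against 473 CPM) and the WAVE complex subunit Cyfip2 (341 against 1180 CPM) were lower. In the microglia 11 of the 24 were higher and 10 lower than in the co-culture, among them Cyfip1 (663 against 89.9 CPM), Wasf3 (5.29 against 140 CPM) and Wasf1 (14.8 against 249 CPM), and 12 were higher and 9 lower than in the PFC, among them Nckap1, Wasf3 and Wasf1 with a log2FC of -4.05, -4.50 and -3.92. No regulator and no partner was called in a treatment comparison (0 of 22 and 0 of 24 in each experiment).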

How the data were processed

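RNA was measured in 29 libraries. The authors made TruSeq RNA v2 libraries, sequenced single reads of 50 bases, aligned them with STAR 2.5.2b to mm10, and deposited raw counts per gene from featureCounts 1.5.1. The annotation release, the strand setting and the treatment of overlapping genes are not given in the sources used here. Symbols, coordinates and exon lengths came from GENCODE M21 (GRCm38), and 48349 of 48709 identifiers matched. All columns were matched to a sample.

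Groups were compared on counts with the quasi-likelihood test of edgeR 4.0.16 (filterByExpr, TMM, no covariate) in R 4.3.3, and p-values were adjusted by Benjamini-Hochberg over all genes tested. The SE is the log2FC divided by the square root of F, and intervals used the t distribution of the fit. DESeq2 1.42.0, RLE and upper-quartile factors, other filters, a factor of unwanted variation, lane and replicate-number blocks and each library left out were alternatives. Libraries of a group differed by at least 1.44 in chi-square per degree of freedom, so none was counted as a copy. PFC libraries are single mice. For the cultures the sources do not say whether replicates are separate preparations, so their p-values measure the spread between these samples.

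The members and gene lists were chosen with earlier results of these data known. Named with values were the C-type genes, the highest and lowest gene per cluster and experiment, the lowest p per cluster and treatment comparison, the largest changes past the threshold per cluster between experiments, the 3 highest in microglia, and up to 3 genes per list and comparison. Genes whose groups do not overlap under treatment, neighbours of named genes, genes with seed matches or shared windows, and those in figures or compared in rank were named after their values were seen.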

Additional observations from a re-analysis of the deposited data

Results flagged for a closer look

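Among 116 groups of 4 to 8 libraries examined for the clustered protocadherins named in the text and the cluster sums, 9 held a library that stood apart from the others by Dixon's criterion (7.76%, where chance gives about 1 in 20). In the sc-control microglia, Pcdhgc4 measured 1.96 CPM in replicate 6, where the others lay between 2.51 and 2.59 CPM. In the anti-miR-99b microglia, Pcdha12 measured 0.947 CPM in replicate 4 (others 1.19 to 1.22 CPM), Pcdhb3 0.904 CPM in replicate 3 (others 1.27 to 1.33 CPM), and Pcdha11 (ENSMUSG00000102206) 0.0327 CPM in replicate 4, which is 1 count, where the others had 0. In the anti-miR-99b co-cultures, Pcdhb16 measured 17.9 CPM in replicate 7 (others 14.3 to 15.5 CPM). In the sc-control co-cultures, Pcdhac1 measured 2.30 CPM in replicate 2 (others 1.25 to 1.67 CPM), Pcdhga9 15.5 CPM in replicate 5 (others 13.3 to 14.1 CPM), Pcdhb16 14.8 CPM in replicate 1 (others 16.6 to 17.8 CPM) and Pcdha2 10.0 CPM in replicate 12 (others 10.9 to 11.5 CPM).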

How the results depend on the processing

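The number of members called higher in the co-culture than in the PFC was 29, was 26 to 31 under the other normalizations, tests, filters and libraries, 28 to 32 with each library left out, and 47 with the adjusted p alone. The 3 lower genes numbered 3 in each of these except the adjusted p alone (4). Members lower in the microglia than in the co-culture numbered 40 to 54 and than in the PFC 38 to 52, with fewer genes tested under the filter of 10 counts in every library, and 47 to 49 with each library left out against the PFC. With the adjusted p alone 2 members were higher in the microglia than in the PFC, Pcdhgc3 and Pcdhgb2, but with at least 10 counts in every library the log2FC of Pcdhgc3 there was -0.01. In the treatment comparisons the count of 0 was changed by 3 settings. A factor of unwanted variation gave 2 lower members in the co-culture, Pcdhb16 and Pcdhb19 (adjusted p = 0.0344 and 0.044), and leaving out single co-culture libraries gave 0 to 1 lower members (Pcdhb16). The replicate number as a block gave 1 lower member in the PFC, Pcdhga9 (log2FC -0.47, edgeR adjusted p = 0.0698), from 2 same-numbered pairs, and 0 in the microglia and 0 in the co-culture, and in the latter 5 members in place of 9 had an unadjusted p under 0.05. Same-numbered libraries had deviations from their group means correlated at -0.29 to 0.0485 in the PFC (2 pairs) and -0.0473 to -0.0373 in the microglia (2 pairs). In the co-culture the values were -0.0152 to 0.0469, and of the 4 pairs 0 correlated best with their own number. So few pairs cannot decide whether the numbers pair the libraries. The cause of the changes in the counts of members called was not tested. The lane as a block changed no count of members called in a treatment comparison. Over all genes the treatment calls moved more. In the PFC, 15 higher and 0 lower became 25 and 0 with upper-quartile factors, 10 and 0 with at least 10 counts in every library, 85 and 8 with DESeq2, 73 and 4 with the lane block, 208 and 107 with a factor of unwanted variation, 297 and 115 without the filter and 475 and 43 with the replicate block. In the microglia, 65 and 8 became 33 and 5 with DESeq2, 116 and 42 with the factor, 138 and 29 without the filter and 87 and 162 with the replicate block. In the co-culture, 137 and 90 became 85 and 36 with the lane block, 70 and 23 with the replicate block and 281 and 234 with the factor. With each library left out they ranged from 1 to 195 higher and 0 to 6 lower in the PFC (1 and 0 without anti-miR-99b replicate 2 or sc-control replicate 2, 195 and 6 without sc-control replicate 4). In the microglia they ranged from 0 to 234 higher and 2 to 175 lower (0 and 2 without sc-control replicate 4, 2 and 3 without anti-miR-99b replicate 5, 234 and 175 without sc-control replicate 2), and in the co-culture from 89 to 159 higher and 49 to 141 lower. Depth limits mainly the microglia, where most alpha genes had few counts.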

Other observations

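Pcdhgb8, a gene of the gamma cluster that GENCODE M21 lists as a polymorphic pseudogene and that was therefore not counted among the 57, had 0 to 7 counts in the sc-control PFC, 1 to 3 in the anti-miR-99b PFC and at most 1 in every co-culture and microglial library. The opposite-strand model Gm26672, which covers the variable exon of Pcdhga10, measured 0.471 ± 0.102 CPM (SD, n = 3) in the sc-control PFC, 0.225 ± 0.077 CPM (SD, n = 8) in the sc-control co-culture and 0.0467 ± 0.0361 CPM (SD, n = 4) in the sc-control microglia. The 3 protein-coding models Gm42416, Gm37013 and Gm37388 of the alpha cluster were listed at 0 in all 29 libraries. They share exon bases with Pcdha4, Pcdha6 and Pcdha7, in that order. The treatment of overlapping genes is not given, so the 0 need not mean that no RNA was made.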
